A study of Mus musculus with 9 samples.

Results

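Bone and mineralization genes were followed across liver fibroblasts of the mouse. The set held 9 of the 24453 genes in the expression table, namely Ibsp, Bglap, Bglap2, Spp1, Alpl, Runx2, Sp7, Dlx5 and Phex, and all 9 were found by their symbols. They were chosen by their measured levels in these libraries, several of them for being high in NASH-fib, so their levels and differences are a description and carry no test.

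RNA sequencing covered 9 libraries, 3 each of hepatic stellate cells (HSCs), CCl4-fib and NASH-fib, all from C57BL/6J mice and each library from cells pooled from 3 to 5 mice. HSCs are the vitamin A-storing cells from which most liver fibroblasts arise, and they were separated from healthy wild-type livers by density gradient. CCl4-fib were CD45- GFP+ cells sorted from Col1a2-GFP Tg mice, in which the collagen α2(I) promoter drives GFP, after carbon tetrachloride at 1 ml/kg 2 times per week for 8 weeks. NASH-fib were CD45- GFP+ cells sorted from male MC/COL mice, which carry the same transgene and lack the melanocortin 4 receptor, after 20 weeks of Western diet begun at 8 weeks of age. The HSCs thus carried neither the transgene nor the receptor knockout and were not sorted, and genotype, injury and the way the cells were isolated cannot be told apart between the groups. The sort for GFP takes any cell in which that promoter is active.

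Libraries held 3071070 to 5634273 reads on genes, the HSC libraries being the shallowest (3071070 to 3825522). A value is the deposited normalized read count, and 3 reads, taken here as the floor, are worth 2.38 to 4.37. Mc4r, the gene knocked out in the NASH mice, had 4, 13 and 0 reads in NASH-fib and none in the other 6 libraries, so its only reads were in libraries labelled as knockout. Which stretch of the gene was deleted is not given in the sources used here, and these reads could not check the labels. A gene is called where its change in the limma fit over all genes was at least 2-fold with a Benjamini-Hochberg adjusted p under 0.05. The summed level of 8 activated fibroblast markers was 6764 to 12067 in the HSC libraries, 50998 to 57347 in CCl4-fib libraries and 29058 to 33282 in NASH-fib, and that of 8 markers of quiescent stellate cells was 28873 to 33930 in HSCs and at most 5109 in the other groups.

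Bone mineral forms when osteoblasts lay down collagen and acidic proteins that bind calcium, while an enzyme at the cell surface removes pyrophosphate, which blocks crystal growth. The program is set in motion by the transcription factor RUNX2, followed by SP7 (osterix), with homeobox proteins such as DLX5 acting beside them. Its late products include bone sialoprotein (Ibsp), osteocalcin (Bglap and Bglap2) and osteopontin (Spp1). In the liver, osteopontin is known from bile duct cells, macrophages and activated stellate cells.

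The osteocalcin genes are shown first, because their sequences limit what the reads can tell. Bglap (chr3:88383495-88384466, mm10, - strand) and Bglap2 (chr3:88377736-88378701, - strand) lie 4794 bases apart, with Bglap3 (chr3:88368616-88371479, - strand) on the far side of Bglap2. Their coding sequences, from GENCODE M21 transcripts on GRCm38, are printed with the bases that differ in capitals.
Bglap: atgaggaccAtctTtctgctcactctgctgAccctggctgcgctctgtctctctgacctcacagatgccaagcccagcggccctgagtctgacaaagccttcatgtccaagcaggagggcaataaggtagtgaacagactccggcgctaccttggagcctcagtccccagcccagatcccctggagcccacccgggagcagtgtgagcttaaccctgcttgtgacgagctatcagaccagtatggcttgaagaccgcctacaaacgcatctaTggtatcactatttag
Bglap2: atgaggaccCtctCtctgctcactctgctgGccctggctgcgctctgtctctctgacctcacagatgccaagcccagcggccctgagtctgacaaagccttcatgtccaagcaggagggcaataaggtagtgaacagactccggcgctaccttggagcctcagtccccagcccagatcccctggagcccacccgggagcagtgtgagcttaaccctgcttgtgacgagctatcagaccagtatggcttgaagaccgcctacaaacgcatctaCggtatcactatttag

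Over 288 coding bases the 2 genes differed at 4, an identity of 98.6%, and the longest stretch without a difference was 241 bases. Of all stretches of 50 bases in the protein-coding transcripts of Bglap, 74.7% also occurred in Bglap2, and 88.2% of those of Bglap2 occurred in Bglap or Bglap3. None of the stretches of Bglap or Bglap2 occurred in a transcript outside the 3 genes, whereas 5.45% of those of Bglap3 did. The split of reads among the 3 genes is therefore uncertain.

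Ibsp and Spp1 lie on chromosome 5 in a cluster of genes for acidic proteins of bone and tooth, in the order Dspp, Dmp1, Ibsp, Mepe and Spp1. The promoters of Bglap, Ibsp and Spp1, the first 180 bases before the start site, are shown because RUNX2 is known to act on the osteocalcin promoter. The sequences are from RefSeq (GRCm38.p6), each in the direction of its gene, at chr3:88384467-88384646 (- strand), chr5:104299107-104299286 (+ strand) and chr5:104434931-104435110 (+ strand). Capitals mark ACCACA, a short form of the RUNX motif, which was searched on both strands.
Bglap: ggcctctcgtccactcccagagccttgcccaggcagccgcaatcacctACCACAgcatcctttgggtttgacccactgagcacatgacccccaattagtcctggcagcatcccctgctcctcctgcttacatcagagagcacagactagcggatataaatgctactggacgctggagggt
Ibsp: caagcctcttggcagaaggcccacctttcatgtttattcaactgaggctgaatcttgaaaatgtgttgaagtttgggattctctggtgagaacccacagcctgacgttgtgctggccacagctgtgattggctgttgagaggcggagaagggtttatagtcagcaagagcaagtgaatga
Spp1: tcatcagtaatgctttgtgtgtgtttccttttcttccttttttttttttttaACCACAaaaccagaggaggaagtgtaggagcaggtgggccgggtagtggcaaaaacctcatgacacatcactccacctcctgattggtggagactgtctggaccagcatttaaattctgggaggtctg

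The match began at base -132 in Bglap and at base -128 in Spp1, counted from the start site. ACCACA or its reverse TGTGGT occurred in 16.8% of 32851 mouse promoters that reach from 250 bases before the start site to 50 after it. It occurred in those of 3 of the 6 genes of the set with a promoter in the table (Bglap, Runx2 and Spp1). The longer AACCACA, which contains ACCACA, occurred in 5.27% of promoters and in those of Runx2 and Spp1. A homeobox motif, TAATTA, occurred in 5.29%, here only in a second promoter of Spp1, and the AP-1 motif TGAGTCA occurred in 5.2% and in no promoter of the set. These are matches of letters and not measured binding sites.

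Ibsp was read in every NASH-fib library and in no HSC library. Its product, bone sialoprotein, binds hydroxyapatite and starts crystal formation. Ibsp (NM_008318, chr5:104299287-104311472, + strand, mm10) had values of 300.4, 343.8 and 285.0 in NASH-fib replicates 1 to 3, from 221, 386 and 290 reads. In CCl4-fib it was 5.56, 25.5 and 0, from 7, 30 and 0 reads, and in each of the 3 HSC libraries it was 0. The 3 NASH-fib libraries were close to each other and all lay above the highest CCl4-fib library. The NASH-fib mean of 309.7 ± 30.5 (SD, n = 3) was 29.9 times the CCl4-fib mean of 10.4 ± 13.4 (SD, n = 3). That ratio rests on CCl4-fib replicate 2, without which it was 111. Against the floor of 3 reads per HSC library, NASH-fib was at least 81.1-fold higher. In CCl4-fib the gene was at least 2.71-fold above the HSC floor, and replicate 3 held no read.

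Osteocalcin is a vitamin K-dependent calcium-binding protein that osteoblasts secrete. Bglap (NM_007541) had values of 59.8, 907 and 730.2 in NASH-fib replicates 1 to 3, from 44, 1018 and 743 reads. Replicate 1 was far below the other 2, so the mean of 566 had an SD of 447 (n = 3). CCl4-fib replicate 2 held 25 reads, a value of 21.3, and the other CCl4-fib libraries and all HSC libraries held none.

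Bglap2 (NM_001032298) showed the same order of libraries, with values of 42.1, 780.2 and 583 in NASH-fib, 0, 17.9 and 3.82 in CCl4-fib and 0 in each HSC library. Every NASH-fib library lay above every other library for both genes. NASH-fib was at least 148-fold above the HSC floor for Bglap and at least 123-fold for Bglap2. Against the mean of CCl4-fib the ratios were 79.8 and 64.8, and that mean rests mostly on replicate 2. Without it the other CCl4-fib libraries had no read of Bglap, and the ratio for Bglap2 was 245.

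Bglap3, a relative of osteocalcin with a longer transcript, was at 5.44, 123.8 and 90.4 in NASH-fib, at 1.7 in CCl4-fib replicate 2 and at 0 in the other 5 libraries. The 3 genes together held 79, 2033 and 1428 reads in NASH-fib, 0, 48 and 4 in CCl4-fib and none in HSCs. Bglap took 50.1% to 55.7% of these reads in the 3 NASH-fib libraries, Bglap2 39.2% to 43.1% and Bglap3 5.06% to 6.84%. The libraries differed much more in the total than in this split. Bglap and Bglap2 share most of their stretches, so a steady split could come from how shared reads were placed, which was not tested. Fitted as 1 entry, a choice made after seeing the data, the 3 genes gave a log2 fold change of 9.35 for NASH-fib against HSCs and 6.79 for NASH-fib against CCl4-fib.

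**Figure D1:**
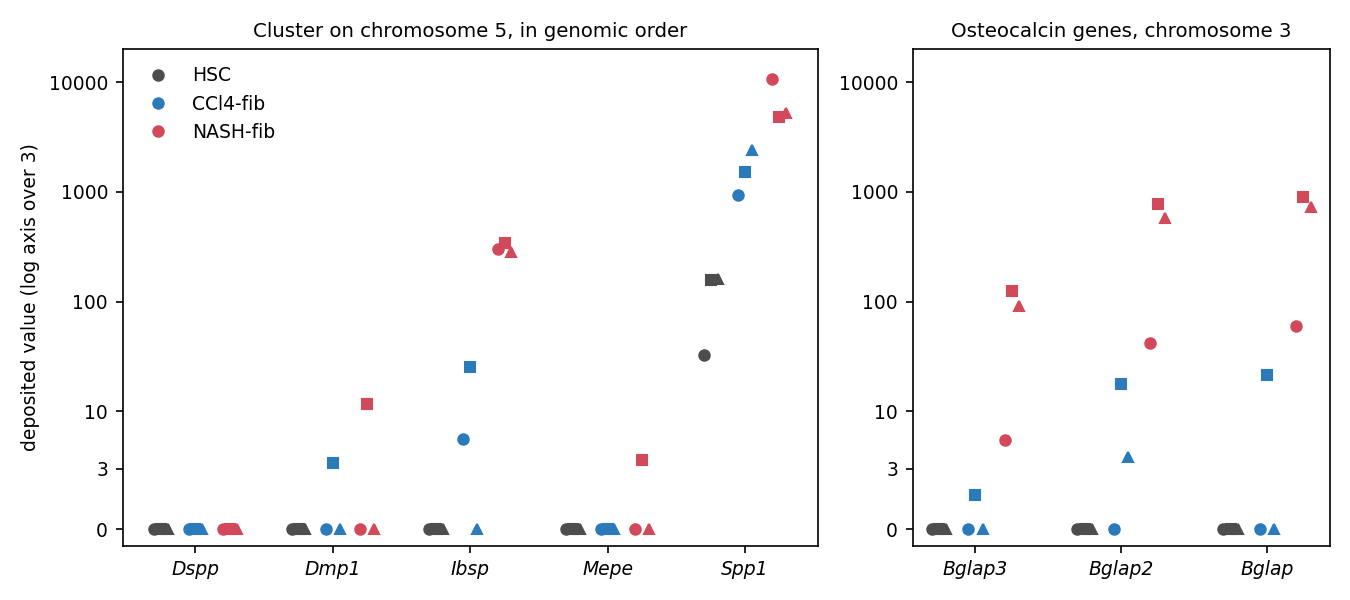
Deposited value per library of the 5 genes of the chromosome 5 cluster (left) and of the 3 osteocalcin genes (right), on a log axis over 3 and a linear one under it, with circle, square and triangle for replicates 1, 2 and 3. Ibsp was at 285.0 to 343.8 in NASH-fib between neighbours with at most 13 reads, Spp1 was present in all 9 libraries, and the 3 osteocalcin genes kept the same order of libraries in NASH-fib.

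Spp1 was read in all 9 libraries, at values of 32.7 or more, and its groups did not overlap, NASH-fib being highest and HSCs lowest. Osteopontin carries a cell-binding RGD site and a run of acidic residues, and it slows crystal growth. Spp1 (NM_001204202, chr5:104435111-104441053, + strand) had values of 10729, 4847 and 5255 in NASH-fib. The CCl4-fib libraries held 938, 1527 and 2421, and the HSC libraries 32.7, 155.8 and 159.0. The highest library of each group lay below the lowest of the next, with NASH-fib replicate 1 well above the other NASH-fib libraries and HSC replicate 1 well below the other HSCs. The means were 115.9 ± 72.0, 1629 ± 747 and 6944 ± 3285 (SD, n = 3 each), so that NASH-fib was 59.9-fold above HSCs and 4.26-fold above CCl4-fib, and CCl4-fib was 14.1-fold above HSCs.

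The counting kept at most 3 reads per position, and in NASH-fib Spp1 held 5.4, 3.72 and 3.65 reads per base of its transcript, where this limit can lower the value. A gene model without a known protein, Gm42793, shares 309 of the 1648 exon bases of Spp1 on the same strand, and its reads cannot be told apart from those of Spp1 there. None of the other genes of the cluster came near this level. Dmp1, a regulator of osteocyte mineralization, had 13 reads in NASH-fib replicate 2 and 4 in CCl4-fib replicate 2, Mepe had 4 in NASH-fib replicate 2, and Dspp, a gene of dentin, was at 0 in all 9 libraries.

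Cell types known for Spp1 differed between the groups too. The summed level of 10 cholangiocyte markers was 354 to 1113 in the HSC libraries, 1522 to 3292 in CCl4-fib libraries and 1792 to 2528 in NASH-fib, and of the 9 markers tested NASH-fib had 6 called higher against HSCs and 4 against CCl4-fib. Epcam was at 20.6 to 66.6 in NASH-fib and at most 7.94 elsewhere, whereas Krt19 was at 53.0 to 469 in NASH-fib and 771 to 2699 in CCl4-fib. The 10 macrophage markers summed to 3392 to 6217 in NASH-fib, 3967 to 13542 in the HSC libraries and 1730 to 2421 in the CCl4-fib libraries. Against HSCs 1 of the 10 was called higher in NASH-fib and 2 lower, and against CCl4-fib 3 were called higher and 2 lower. The fibroblasts were sorted as CD45-, a gate that removes leukocytes such as macrophages, and the HSCs were not sorted. The part of these cells in the level of Spp1 was not tested.

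Phex encodes an endopeptidase of the bone cell surface, whose loss causes X-linked hypophosphatemia. It was at 91.1, 81.0 and 29.5 in NASH-fib (67, 91 and 30 reads), at 10.3, 4.25 and 0 in CCl4-fib, and at 0 in each HSC library (NM_011077, chrX:157162075-157415286, - strand). All NASH-fib libraries lay above all others. The mean of 67.2 ± 33.1 (SD, n = 3) was at least 17.6-fold above the HSC floor and 13.8 times that of CCl4-fib, a ratio that was 31.6 without CCl4-fib replicate 1.

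Alpl lay the other way. It encodes tissue-nonspecific alkaline phosphatase, the enzyme that clears pyrophosphate and so lets mineral form, and it is also made in liver and neutrophils. Alpl (NM_007431, chr4:137741731-137796384, - strand) was at 2.72, 34.7 and 6.88 in NASH-fib, against 113.4, 90.3 and 89.7 in the HSC libraries and 55.6, 35.7 and 37.2 in the CCl4-fib libraries. The 3 groups did not overlap, but NASH-fib replicate 2 lay just under the lowest CCl4-fib library. The mean in HSCs, 97.8 ± 13.5 (SD, n = 3), was 6.62 times that of NASH-fib and 2.28 times that of CCl4-fib, and the mean of CCl4-fib was 2.9 times that of NASH-fib. The NASH-fib mean was thus 0.345 times that of CCl4-fib, and 0.112 times without NASH-fib replicate 2. The 10 neutrophil markers summed to 614, 6459 and 1331 in NASH-fib replicates 1 to 3, and the highest of them was in the library with the highest Alpl of that group. In HSCs and in CCl4-fib, replicate 1 held the highest Alpl of its group and the lowest neutrophil sum, 52.6 and 5.55. The highest sums, 1076 in HSC replicate 2 and 78.2 in CCl4-fib replicate 3, were not in the libraries with the lowest Alpl. The gate on CD45 removes neutrophils too, and their markers were still read in the sorted NASH-fib libraries. The part of neutrophils in the level of Alpl was not tested.

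The regulators were low throughout. Runx2 (NM_001271627, chr17:44603989-44814627, - strand) was at 77.5, 55.2 and 23.6 in NASH-fib, 9.52, 17.9 and 45.8 in the CCl4-fib libraries and 29.2, 43.7 and 1.2 in the HSC libraries, and the groups overlapped. An antisense gene, Runx2os1, shares 519 of its 8837 exon bases, and the counting of both strands cannot tell their reads apart. Sp7 (NM_130458, chr15:102357177-102366271, - strand), the osteoblast factor downstream of RUNX2, had 4, 1 and 1 reads in NASH-fib, 1, 0 and 0 in CCl4-fib and none in HSCs. Dlx5 (NM_010056, chr6:6877801-6882068, - strand) had 0, 4 and 2 reads in NASH-fib, 3, 0 and 0 in CCl4-fib and none in HSCs. At this depth neither could be compared between groups.

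**Figure D2:**
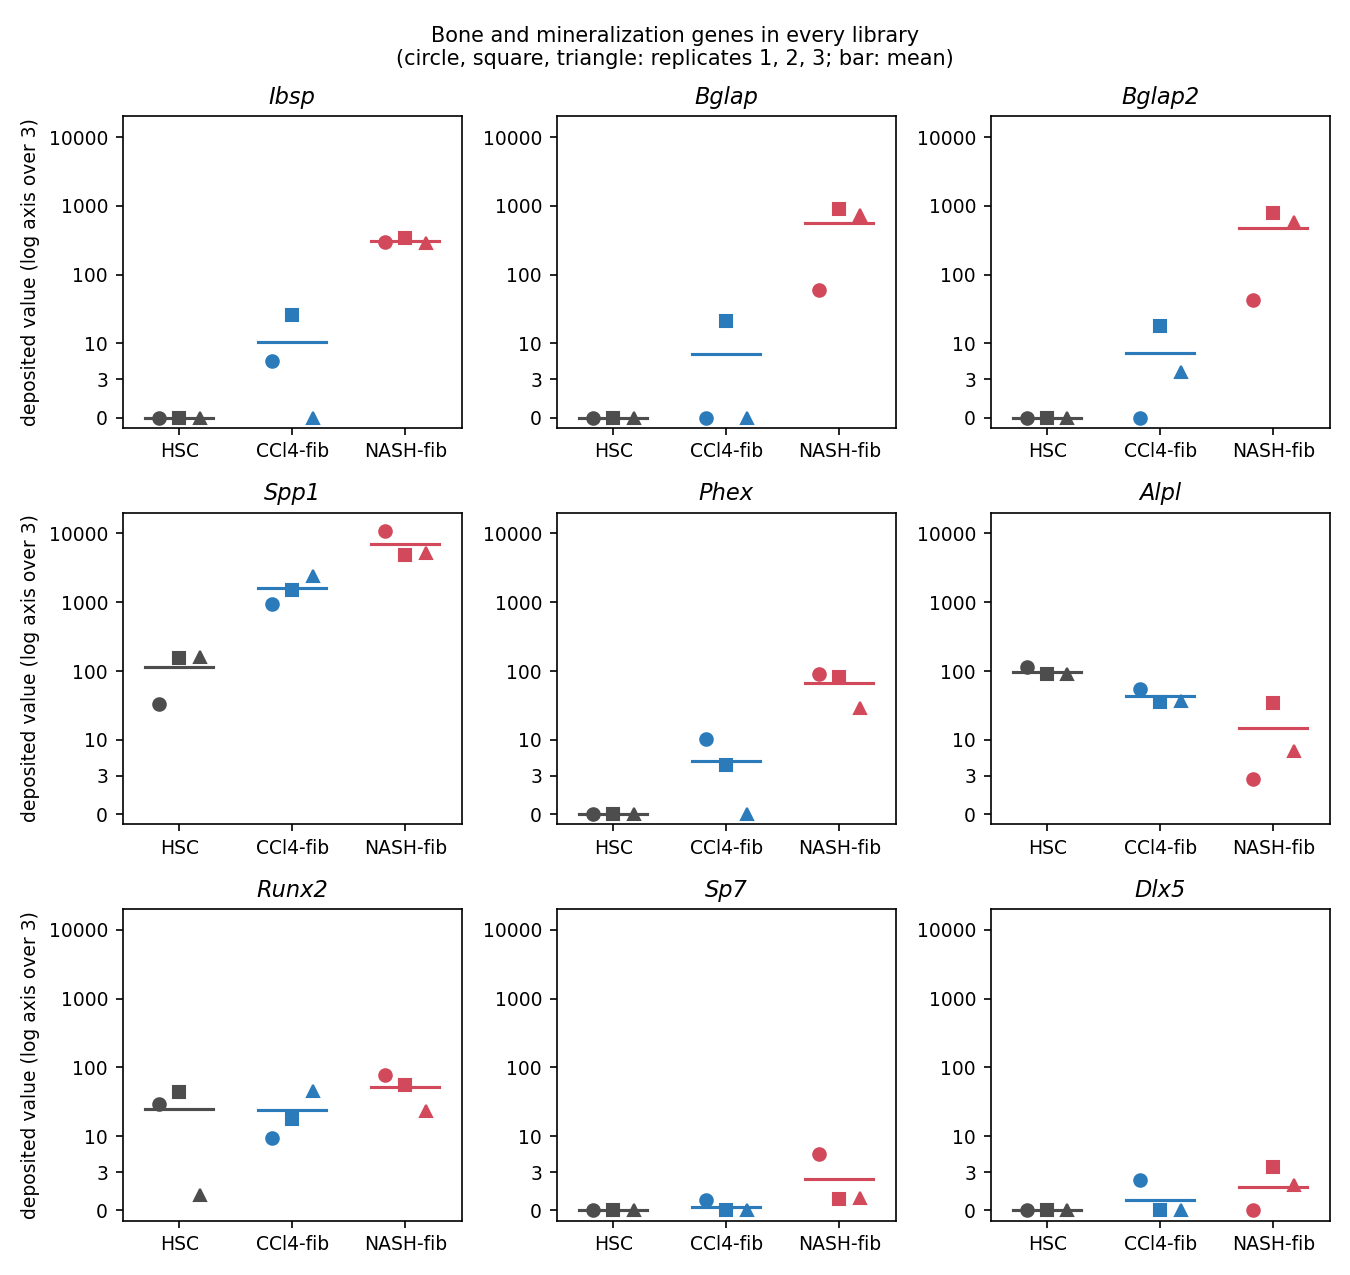
Deposited value of each of the 9 genes in every library, on a log axis over 3 and a linear one under it, with circle, square and triangle for replicates 1, 2 and 3 and a bar at the mean of each group. Ibsp, Bglap, Bglap2 and Phex were at 0 in every HSC library and highest in NASH-fib, Spp1 was highest and Alpl lowest in NASH-fib, and Sp7 and Dlx5 stayed at 4 reads or fewer.

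Levels can be set side by side between genes only per length. Per kilobase of transcript, the mean value in NASH-fib was 4746 for Spp1, 1196 for Bglap, 1003 for Bglap2 and 159 for Ibsp, followed by 10.8 for Phex, 8.84 for Runx2, 5.89 for Alpl, 1.31 for Dlx5 and 1.07 for Sp7. The ranges of neighbours in this order overlapped except at 2 steps. Spp1, at 3313 to 7334 per kilobase, lay clear of Bglap, at 126 to 1917, and Ibsp, at 146 to 177, lay clear of Phex, at 4.72 to 14.6. In HSCs the order was Spp1 with a mean of 79.2 per kilobase, Alpl with 39.0 and Runx2 with 4.19, and no read of the other 6 genes was found.

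**Figure D3:**
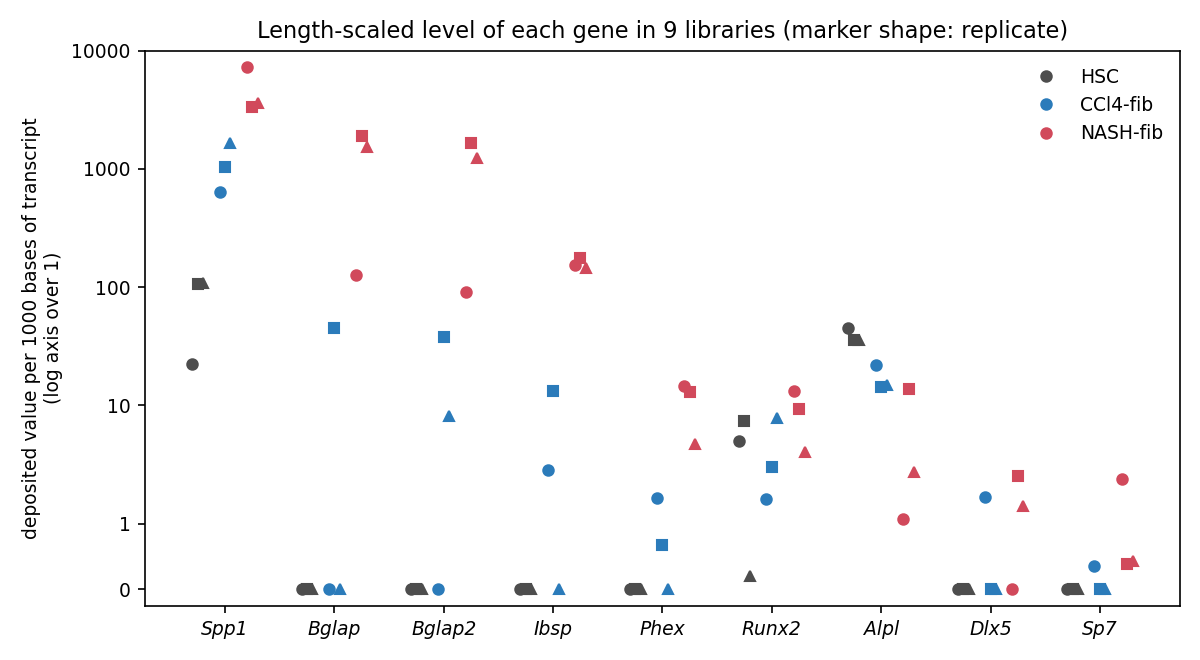
Value per kilobase of transcript of the 9 genes in HSCs (grey), CCl4-fib (blue) and NASH-fib (red), on a log axis over 1 and a linear one under it, 1 point per library. Spp1 had the highest mean in all 3 groups, and in NASH-fib the osteocalcin genes and Ibsp came next, ahead of the 5 genes with means of 10.8 or less.

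In the fit over all genes, 7 of the 9 passed the filter on low counts and Sp7 and Dlx5 did not. Ibsp, Bglap, Bglap2 and Phex passed it through their NASH-fib libraries, so they were bound to differ and their counts support nothing. For NASH-fib against HSCs, Ibsp, Bglap, Bglap2, Spp1 and Phex were called higher and Alpl lower, where 8.23% of the 13651 genes tested were called higher and 4.3% lower. On the scale of log2(value + 1), the log2 fold changes were 8.28 ± 0.98 (SE) for Ibsp, 8.42 ± 1.31 for Bglap, 8.08 ± 1.23 for Bglap2, 6.10 ± 0.62 for Spp1, 5.94 ± 0.92 for Phex, -3.27 ± 0.73 for Alpl and 1.73 ± 1.07 for Runx2. This scale lowers the change of genes at 0 in HSCs, such as Ibsp, at 11.33 in edgeR. For Alpl and Runx2 it gave larger changes than edgeR, which gave -2.695 and 1.155. Without HSC replicate 3, which held 1 read of Runx2, the change of Runx2 was 0.38. Alpl was no longer called without HSC replicate 1, without NASH-fib replicate 3 or with a date code of the labels as a term. With that term its log2 fold change was -3.78. The term leaves the fit less information on the spread, so a call can be lost without a smaller change.

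For NASH-fib against CCl4-fib, Ibsp, Bglap, Bglap2 and Phex were called higher, against 4.97% of all genes called higher and 5.66% called lower. Over all genes limma called 678 higher and 773 lower here, edgeR 802 higher and 563 lower, and DESeq2 1518 higher and 1161 lower. The log2 fold changes were 5.79 ± 0.98 (SE) for Ibsp, 6.93 ± 1.31 for Bglap, 5.91 ± 1.23 for Bglap2 and 3.97 ± 0.92 for Phex, and 2.10 ± 0.62 for Spp1, which was not called. These calls depended on the fit for all but Ibsp. Ibsp passed the filter through its NASH-fib libraries, so its calls across the fits support nothing either. DESeq2 did not call Bglap, Bglap2 was lost without CCl4-fib replicate 1, and Phex was lost without CCl4-fib replicate 2 or 3 or NASH-fib replicate 1. Without NASH-fib replicate 3 only Ibsp was called. Across the fits without 1 library the log2 fold change ran from 4.55 to 6.92 for Ibsp and from 2.99 to 4.74 for Phex. Spp1 was called with upper-quartile scaling, edgeR, DESeq2, a pseudocount of 5, a fit on the 2 groups alone, or HSC replicate 1 or 2 left out.

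For CCl4-fib against HSCs, Spp1 was the gene of the set called higher, with a log2 fold change of 4.00 ± 0.62 (SE), where 16.2% of all genes were called higher and 11.7% lower. The log2 fold change was 2.48 ± 0.98 (SE) for Ibsp and 1.96 ± 0.92 for Phex. Without CCl4-fib replicate 3, the library with no read of Ibsp or Phex, both were called higher beside Spp1.

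The labels carry a date code for each library, without saying what it dates, and 1 code was shared by HSC replicate 2, CCl4-fib replicate 1 and NASH-fib replicate 1. Among these 3 libraries, in that order, Spp1 was at 155.8, 938 and 10729, Ibsp at 0, 5.56 and 300.4, Bglap at 0, 0 and 59.8, Phex at 0, 10.3 and 91.1, and Alpl at 90.3, 55.6 and 2.72. The NASH-fib library was the highest of the 3 for Spp1, Ibsp, Bglap and Phex and the lowest for Alpl, and its osteocalcin values were the lowest of NASH-fib. A second code was shared by CCl4-fib replicate 3 and NASH-fib replicates 2 and 3. There Ibsp was at 0 against 343.8 and 285.0, and Bglap at 0 against 907 and 730.2.

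The 3 genes whose course over the 9 libraries was most like that of each of these genes were found by the root-mean-square difference of centred log2(value + 1) among 13650 other genes, as a description. The gene nearest to Bglap was Bglap2, at 0.781 log2 units, and then Ibsp at 1.33 and Pkhd1 at 1.69. Bglap and Bglap2 share most of their sequence, so their likeness is not a separate observation. Nearest to Ibsp were Pkhd1, a gene of the primary cilium of bile duct and kidney cells, at 1.16, Bmpr1b, a receptor for bone morphogenetic proteins, at 1.21, and Phex at 1.32. Bmpr1b was nearest to Phex at 0.494, with values of 89.7, 57.9 and 43.2 in NASH-fib, 11.9, 12.8 and 0 in CCl4-fib and 0 in HSCs.

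Ism1 at 0.792 and Nxf7 at 0.80 followed for Phex. F13a1, which encodes a subunit of clotting factor XIII, was the third for Bglap2 at 1.68. For Spp1 the nearest were the transcription factors Tfcp2l1 at 0.591 and Gata3 at 0.636, and the sodium-calcium exchanger Slc8a1 at 0.758. For Alpl they were Slc16a9 at 0.502, Hic1 at 0.583 and Cntfr at 0.592, and for Runx2 they were Osgin2 at 0.600, Zfp607 at 0.620 and Strn at 0.663.

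A wider list of 69 genes of bone, mineral and cartilage, all in the table, was set beside these, and 45 of them passed the filter. This list was written by hand with earlier results of these data known, so its shares of called genes are a description. In NASH-fib against HSCs, 10 of the 45 were called higher (22.2%, beside 8.23% of all genes tested) and 5 lower (11.1%, beside 4.3%), with a median log2 fold change of 0.46 beside -0.02 over all genes tested. In NASH-fib against CCl4-fib, 4 were called higher (8.89%, beside 4.97%) and 1 lower (2.22%, beside 5.66%), with a median of -0.04 beside -0.11. In CCl4-fib against HSCs, 14 were called higher (31.1%, beside 16.2%) and 5 lower (11.1%, beside 11.7%), with a median of 0.83 beside 0.18. Of the genes called higher against HSCs, 3 in each comparison (Vdr, Stc2 and Col11a1) had at most 1 read in every HSC library and passed the filter through the fibroblasts, so they were bound to differ and their calls support nothing. Smpd3 and Fam20a had 2 HSC libraries at the minimum of the filter, and Stc1 and Fam20c had 1. These genes too needed fibroblast libraries to pass, so the filter favored their calls and their adjusted p-values carry little weight. With the date code as a term, Smpd3, Col11a1, Stc1 and Stc2 were no longer called higher in NASH-fib against HSCs, nor Pth1r, Itgb3 and Ecm1 lower, and Cd44, Fam20a, Slc20a2 and Anxa5 were no longer called higher in CCl4-fib against HSCs, nor Slc20a1 lower. Genes on the other strand share 95 exon bases of Pth1r, 247 of Smpd3 and 229 of Stc1, and their reads cannot be told apart there. All adjusted p-values given for these genes are from limma with Benjamini-Hochberg adjustment over 13651 genes.

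Among 9 tested regulators of osteoblast formation, Sox9 rose and Pth1r fell in both fibroblast groups against HSCs. Vdr, the vitamin D receptor, was at 0 in every HSC library, at 38.9, 74.0 and 112 in CCl4-fib and at 44.9, 42.8 and 24.6 in NASH-fib. Sox9, a factor of cartilage and also of bile duct cells, was at 578, 254 and 363 in NASH-fib, 113.5, 219 and 237 in the CCl4-fib libraries and 14.0, 59.7 and 21.5 in the HSC libraries (limma adjusted p = 0.00138 for NASH-fib against HSCs). Pth1r, the receptor for parathyroid hormone, was at 615, 225.7 and 344 in HSCs and at most 46.8 in the fibroblasts, a log2 fold change of -3.87 ± 0.58 (SE) in NASH-fib with a limma adjusted p of 0.00139.

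Twist1, a repressor of RUNX2, was lower in NASH-fib, at 10.9, 20.5 and 6.88, than in CCl4-fib, at 69.0, 76.5 and 63.0, with a limma adjusted p of 0.0282. This call was lost with the date code as a term and without any single CCl4-fib replicate or NASH-fib replicate 1 or 3. Cbfb, the partner of RUNX2, had a log2 fold change of -0.21 ± 0.53 (SE) and Atf4 one of -0.41 ± 0.37 for NASH-fib against HSCs, and neither passed the test. Dlx6 was at 0 in all 9 libraries, and Msx2 had reads in the 3 NASH-fib libraries alone, at values of 0.89 to 4.91.

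Of 11 other bone matrix genes, 6 were tested. Mgp, Ogn and Omd rose and Ecm1 fell in NASH-fib against HSCs. Omd, osteomodulin, a proteoglycan of mineralized matrix, was at 935, 272 and 348 in NASH-fib, at 32.7, 91.7 and 57.4 in HSCs and at 62.7, 38.3 and 10.5 in CCl4-fib. NASH-fib lay above both, with limma log2 fold changes of 2.98 ± 0.71 (SE, adjusted p = 0.018) and 3.87 ± 0.71 (adjusted p = 0.0131), and the first call was lost without HSC replicate 1. Mgp, matrix Gla protein, which inhibits calcification, was at 505.7, 2788 and 2480 in NASH-fib, 2601 to 3190 in CCl4-fib libraries and 39.3 to 64.6 in HSC libraries, so here both fibroblast groups were high.

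Ogn, osteoglycin, a small leucine-rich proteoglycan, was at 658 to 1584 in the HSC libraries, 2870 to 4368 in CCl4-fib libraries and 6782 to 16518 in NASH-fib. Its limma adjusted p was 0.0484 for NASH-fib against CCl4-fib, a call that held without HSC replicate 2 or NASH-fib replicate 2 and was lost in the other 7 fits that leave out a library. It was also lost under the replicate block, with the date code as a term, with a pseudocount of 0.5 and without the filter on low counts. Mgp, Ogn, Sparc and Ecm1 reached 5.64, 4.80, 5.93 and 3.32 reads per base, where the limit on reads per position can lower their values. Ecm1, a secreted glycoprotein of the extracellular matrix, fell in NASH-fib, at 124 to 958 against a range of 2060 to 7481 in HSCs (limma adjusted p = 0.0173), and the call was lost without HSC replicate 1 or 3. Sparc, osteonectin, was high in all libraries, at 6767 to 14869.9.

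Among 11 tested genes of mineral formation and inhibition, Smpd3 rose and Nt5e fell in NASH-fib against HSCs. Nt5e, the nucleotidase CD73, which forms adenosine, dropped from 711, 997 and 427 in HSCs to 12.2, 9.8 and 41.3 in NASH-fib and 3.97, 29.8 and 17.2 in CCl4-fib (limma adjusted p = 0.00103 and 0.000433). Smpd3, a sphingomyelinase needed for skeletal mineralization, was at 7.17 to 17.5 in HSCs, 161 to 235 in CCl4-fib and 76.1 to 204 in NASH-fib. Fam20c, the kinase that phosphorylates osteopontin and bone sialoprotein, was at 10.9, 38.3 and 44.2 in NASH-fib, 54.0, 96.1 and 81.1 in the CCl4-fib libraries and 2.34, 2.91 and 14.4 in the HSC libraries. It was called higher in CCl4-fib with a limma adjusted p of 0.00414 and not in NASH-fib, where the adjusted p was 0.0803, and the limma adjusted p between the fibroblast groups was 0.219.

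Fam20a, a partner of Fam20c, was also called higher in CCl4-fib against HSCs (limma adjusted p = 0.0268), as were Slc20a2 and Anxa5, which are named because they complete the count and after their values were seen. The phosphate carrier Slc20a1 was called lower there (limma adjusted p = 0.0274). Without HSC replicate 1 or CCl4-fib replicate 2 none of these 4 was called, and each was lost in at least 3 of the 9 fits without a library. Enpp1, which makes pyrophosphate, had a log2 fold change of -0.02 ± 0.62 (SE) and Ank, which exports it, one of -0.21 ± 0.48 in NASH-fib against HSCs, and neither passed. Car2, carbonic anhydrase 2, was called higher in NASH-fib than in CCl4-fib, at 103, 141 and 234 against 27.8, 56.1 and 20.0 (limma adjusted p = 0.0286), a call lost under the replicate block, with the date code as a term and without NASH-fib replicate 3 or any single CCl4-fib replicate. Phospho1, a phosphatase of matrix vesicles, stayed at or under a value of 8.74 in all libraries and was not tested.

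Of 4 tested genes of osteocytes and phosphate regulation, Stc1 and Pdpn rose in NASH-fib against HSCs. Pdpn, podoplanin, a marker of early osteocytes and also of activated fibroblasts, was at 203 to 330 in the HSC libraries, 2927 to 3083 in CCl4-fib libraries and 2669 to 3363 in NASH-fib (limma adjusted p = 7.51e-05 for NASH-fib). Stc2, a stanniocalcin, was at 0 in HSCs, 21.3 to 37.3 in CCl4-fib and 13.8 to 35.6 in NASH-fib. Stc1 was at 40.3 to 152 in NASH-fib and at most 17.5 in HSCs (limma adjusted p = 0.0233), a call lost with edgeR, with the date code as a term and without HSC replicate 1 or 3 or NASH-fib replicate 1 or 2. Sost, the osteocyte inhibitor of Wnt signaling, was at 2.72 in NASH-fib replicate 1 and at 2.34 in HSC replicate 1, from 2 reads each. It was at 0 in all other libraries.

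The receptors for osteopontin and bone sialoprotein, 8 integrin chains and CD44, did not share one course. Itgb3 fell in NASH-fib, at 69.5 to 151 against a range of 499.5 to 1431 in HSCs, with a limma adjusted p of 0.00579. Itga9 fell as well, at 254 to 398 against a range of 1368 to 1853, with a limma adjusted p of 0.00137. Itgav, the partner of Itgb3, had a log2 fold change of 0.46 ± 0.53 (SE) and Itgb1 one of -0.05 ± 0.38. Itga4 was called higher in NASH-fib, at 393, 167 and 134, than in CCl4-fib, at 52.4, 19.6 and 6.68 (limma adjusted p = 0.0267), and the call was lost without CCl4-fib replicate 2 or 3 or NASH-fib replicate 1 or 3. Itga4 shares 1124 of its 13978 exon bases with Cerkl on the other strand. Cd44 was called higher in CCl4-fib, at 1016 to 3082, than in HSCs, at 394 to 684, a call lost with the date code as a term.

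Markers of osteoclasts, the cells that resorb bone, were partly absent and partly read. Of 7, Ocstamp was at 0 in all libraries, Calcr was at 1.7 in CCl4-fib replicate 2 and Oscar at 4.37 in HSC replicate 2, each at 0 elsewhere. Dcstamp, needed for the fusion of osteoclasts, was at 5.44, 12.5 and 25.6 in NASH-fib, 11.9, 0 and 3.82 in the CCl4-fib libraries and 0 in HSCs, and it was the marker of this list called higher in NASH-fib against HSCs, having passed the filter through the fibroblasts. Atp6v0d2, a subunit of the proton pump, was at 95.2, 25.8 and 66.8 in NASH-fib, 17.5, 33.2 and 2.86 in the CCl4-fib libraries and 16.7 to 52.4 in the HSC libraries. The list summed to 493 to 571 in the HSC libraries, 1447 to 2005 in CCl4-fib libraries and 655 to 1123 in NASH-fib, most of it Ctsk and Acp5, and its part in the levels of the bone genes was not tested. Tnfsf11, the osteoclast-forming cytokine RANKL, was near the floor in every group. It was at 0 in all 3 NASH-fib libraries, at 0, 5.1 and 0.95 in CCl4-fib and at 0, 0 and 4.78 in HSCs. Its decoy receptor Tnfrsf11b, osteoprotegerin, was at 1468 to 4084 in the HSC libraries, 1361 to 2134 in CCl4-fib libraries and 519 to 2047 in NASH-fib. Ctsk, cathepsin K, was called higher in CCl4-fib against HSCs, with a limma adjusted p of 0.0045. None of the 5 tested genes of the list of osteoclast coupling in the wider set, which holds RANKL and osteoprotegerin but not Dcstamp, was called in NASH-fib against HSCs by limma, edgeR or DESeq2, and 1 was higher and 1 lower at an unadjusted limma p under 0.05.

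Cartilage genes were mostly at or near 0. Of 9, only Col11a1 was tested, at 46.2, 16.9 and 32.4 in NASH-fib, 24.6, 10.2 and 59.2 in CCl4-fib and at most 1.46 in HSCs. Col9a1 and Hapln1 were at 0 throughout, Col2a1 had reads only in NASH-fib replicate 3, at 4.91, and Col10a1 stayed at or under 4.45. Acan, aggrecan, reached 81.0 in CCl4-fib replicate 1 and at most 12.5 elsewhere.

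**Figure D4:**
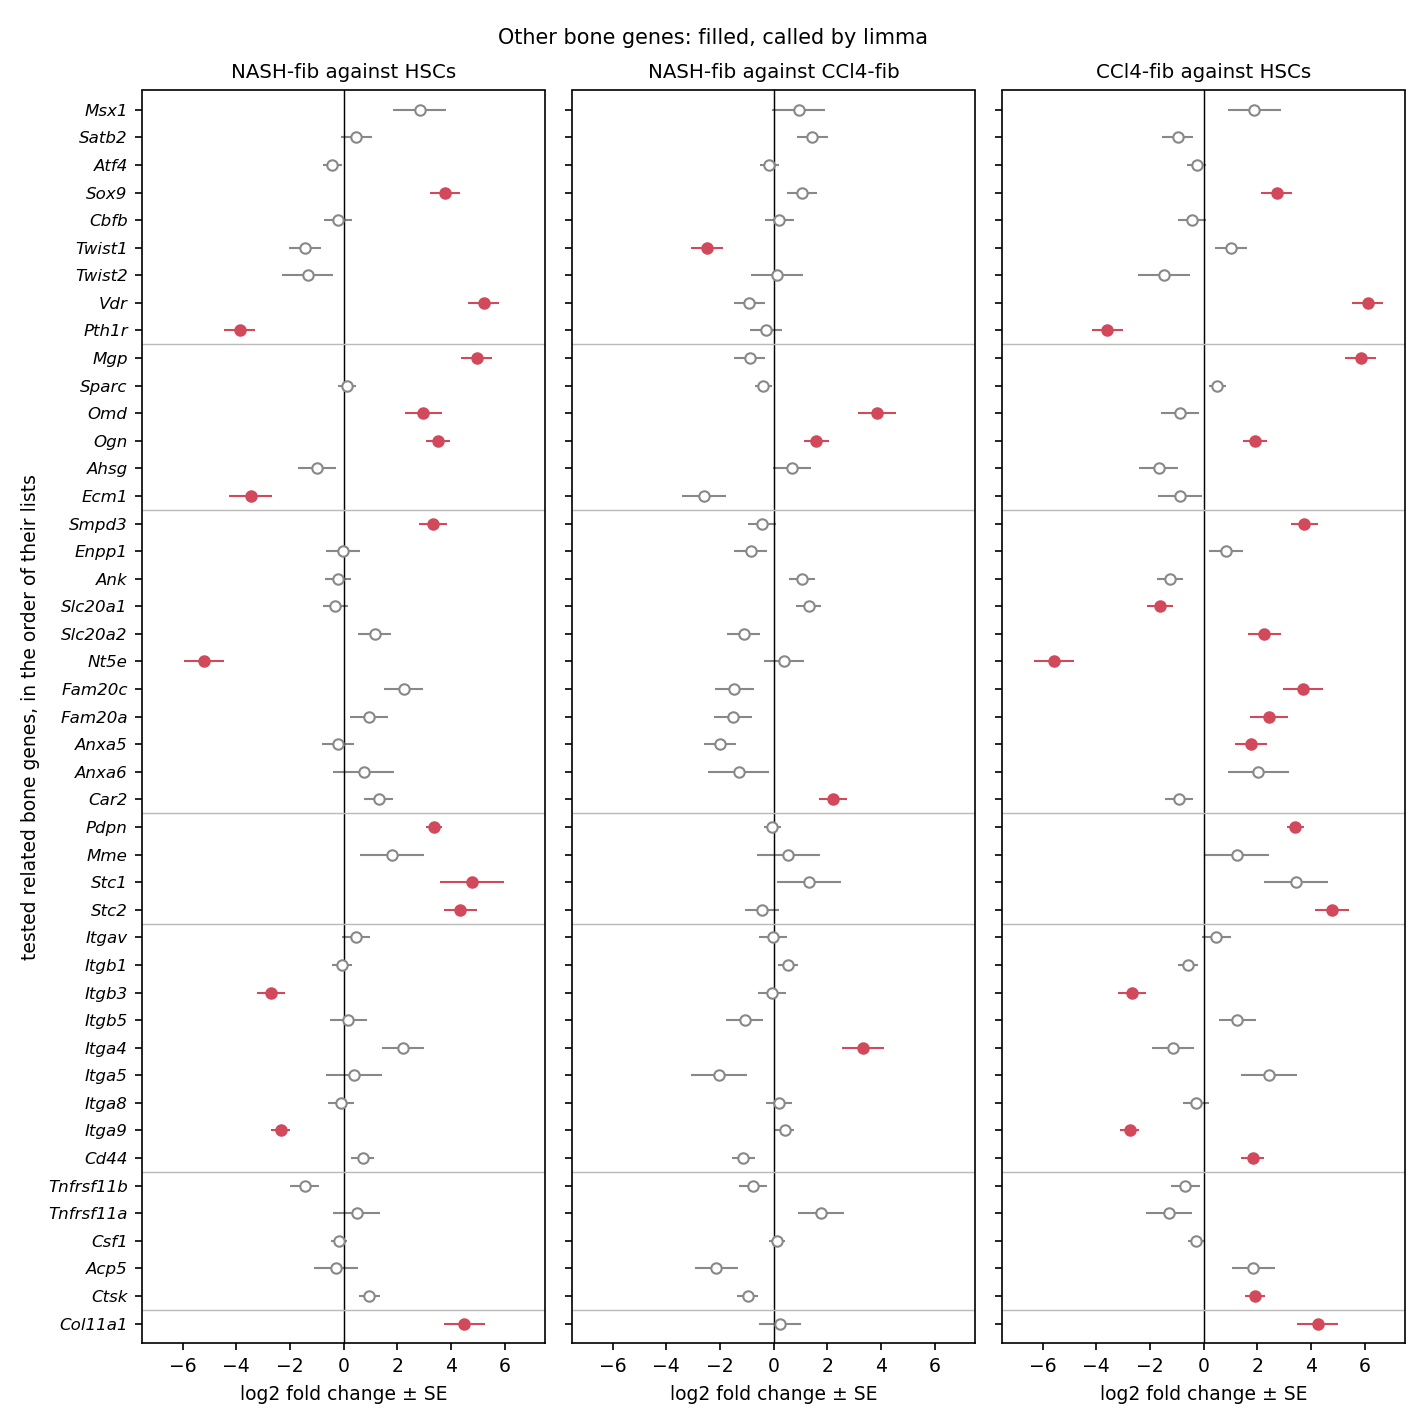
Log2 fold change with its standard error for the 45 tested genes of the wider bone list in the 3 comparisons, with lines between the lists and filled points for genes called by limma. Against HSCs, 10 genes were higher and 5 lower in NASH-fib and 14 higher and 5 lower in CCl4-fib, whereas 4 were higher and 1 lower between the 2 fibroblast groups.

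Other cells moved with the groups as well. The 10 hepatocyte markers summed to 23985 to 39905 in the HSC libraries, 2219 to 3540 in CCl4-fib libraries and 8538 to 28106 in NASH-fib, and 7 of 10 were called higher in NASH-fib than in CCl4-fib. The 10 markers of sinusoidal endothelial cells summed to 8175 to 16647, 281 to 376 and 1326 to 4278, and 9 were called higher in NASH-fib than in CCl4-fib. Of 8 tested neutrophil markers, 5 were called higher in NASH-fib than in CCl4-fib, and the list summed to 52.6 to 1076 in HSCs and 5.55 to 78.2 in CCl4-fib. Smooth muscle markers summed to 131 to 447 in the HSC libraries, 3345 to 14451 in CCl4-fib libraries and 5238 to 21760 in NASH-fib. Their part in the levels of the bone genes was not tested, and in such bulk libraries a change in the number of cells that express a gene and a change in RNA per cell cannot be told apart.

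**Figure D5:**
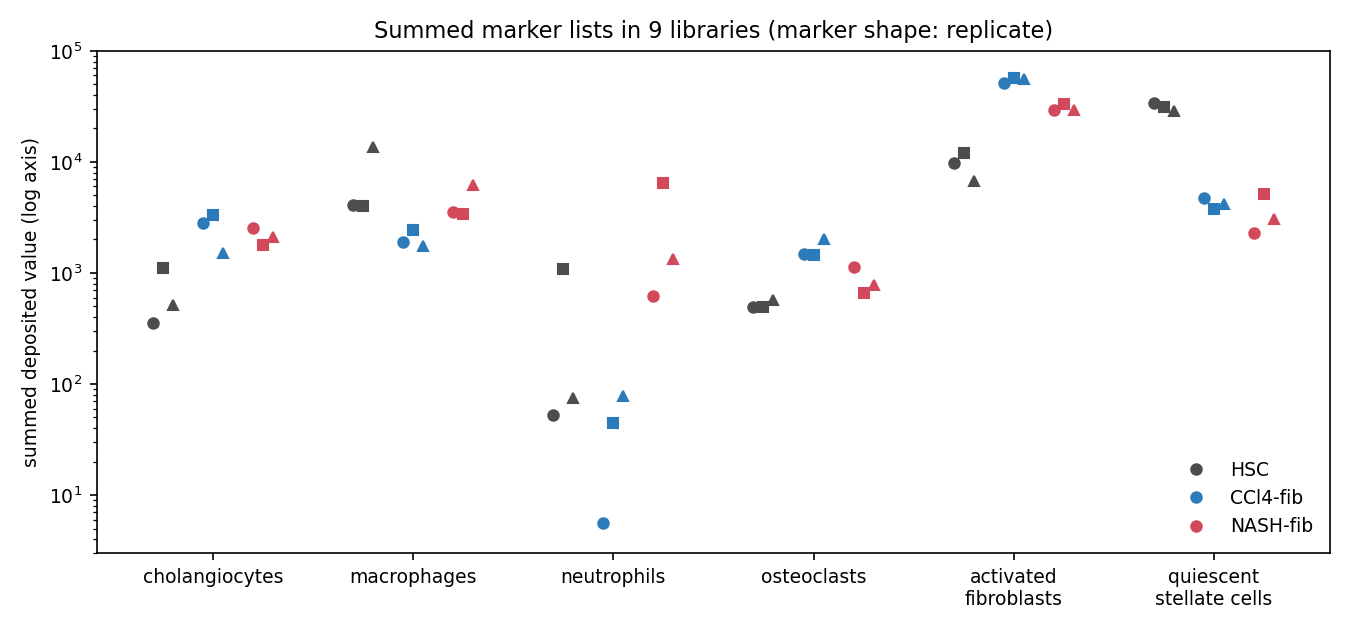
Summed deposited value of 6 marker lists in every library on a log axis, with the groups in color and the replicates by shape. Cholangiocyte markers were at 354 to 1113 in HSCs and higher in both fibroblast groups, neutrophil markers were highest in NASH-fib replicate 2, and the osteoclast sum was highest in CCl4-fib.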

How the data were processed

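The authors sequenced SMARTer-amplified RNA as single-end reads, aligned it to mm10 with STAR, and counted it with HOMER on RefSeq exons of either strand, counting no more than 3 reads at a position and merging the transcripts of a gene. The deposited values are a normalized signal per gene, labelled as DESeq2 output over 10 libraries. Of these, 9 are columns here, and 0 value columns were left unused. The values summed to 4471988 to 4471995 in every library, so they are scaled to an equal total of reads. The main limma fit added no further scaling, unlike the upper-quartile, edgeR and DESeq2 alternatives. Every value (100%) was a whole multiple of what 1 read is worth in its library (tolerance 0.05), so reads could be recovered. Limma 3.58.1 (R 4.3.3) was fitted to log2(value + 1) of the 9 libraries in 1 model, after edgeR 4.0.16 filterByExpr (minimum count 10) on these reads, with a mean-dependent prior. Genes were called at a change of at least 2-fold and a Benjamini-Hochberg adjusted p under 0.05. The authors' values limit precision at low counts, and 3 reads per library served as the floor for folds. DESeq2 1.42.0, edgeR's quasi-likelihood test, other pseudocounts, scaling, filters and blocks, and each library left out were alternatives.

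The members and all gene lists, which were written by hand, were chosen with earlier results of these data known. Of the wider list, the text names the called genes with the largest change, up to 3 per list, direction and comparison, with others as examples named after their values were seen, and 3 genes most like each member. Groups came from the sample titles. Nothing states that the pools of a group came from separate mice, so p-values measure the spread between pools. No member's p is given. Of the 9 genes, 6 matched a RefSeq promoter by symbol.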

Additional observations from a re-analysis of the deposited data

How the results depend on the processing

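No log2 fold change of a gene of the set that was called in the main fit changed direction in a refit. Of 377 refitted log2 fold changes of single genes of the set, 355 moved by less than 1 residual SD and 22 by more. Many refits could not move the estimate, such as those without a library of the third group. The residual SD was also wide for some genes. Runx2 in NASH-fib against HSCs went from 1.73 to 0.38 without HSC replicate 3 and is among the 355. The count is therefore no measure of how stable the changes are. The set kept 5 to 6 called genes in NASH-fib against HSCs without 1 library, 1 to 5 in NASH-fib against CCl4-fib and 1 to 3 in CCl4-fib against HSCs, where edgeR called 2 and DESeq2 3. In NASH-fib against CCl4-fib, 3 were called without any single CCl4-fib replicate or NASH-fib replicate 1, and 1 without NASH-fib replicate 3. With the date code as a term, the wider list had 6 genes called higher and 2 lower in NASH-fib against HSCs, and 2 higher and 0 lower against CCl4-fib, where 9 were lower at an unadjusted limma p under 0.05. In that comparison DESeq2 called 3 lower and a pseudocount of 5 gave 2. Without 1 library the wider list had 9 to 11 higher and 4 to 6 lower in NASH-fib against HSCs, 1 to 5 and 0 to 3 against CCl4-fib (1 higher without CCl4-fib replicate 2 or 3 or NASH-fib replicate 3, 2 without CCl4-fib replicate 1), and 11 to 17 and 4 to 6 in CCl4-fib against HSCs. The cause was not tested. Nothing states that the replicate numbers pair the libraries. The deviations of same-numbered libraries from their group means correlated at -0.47 to 0.51 and above 0.1 in 1 of 9 pairs. Those of different-numbered libraries ran from -0.59 to 0.65, the highest for HSC replicate 2 and NASH-fib replicate 1, which share a date code. All other pairs between groups that share a code, whatever their numbers, ran from -0.17 to 0.04. Deviations within a group of 3 sum to 0, so these correlations cannot decide whether libraries are paired. With the replicate number as a block, 2 genes of the wider list were called higher in NASH-fib against CCl4-fib in place of 4, and the counts of the set stayed at 6, 4 and 1. A floor of 1 read in place of 3 raised the lower bounds against HSCs to 243 for Ibsp, 444 for Bglap, 368 for Bglap2 and 52.8 for Phex. The median of all genes for CCl4-fib against HSCs was 0.18 in log2 and 0.0014 with edgeR. For NASH-fib against CCl4-fib the median changed sign, from -0.11 with limma to 0.14 with edgeR, 0.12 with DESeq2 and 0.046 with upper-quartile scaling. Run on the recovered reads, edgeR called 1576 genes in all between NASH-fib and HSCs, 1365 between the fibroblast groups and 3592 between CCl4-fib and HSCs, where limma called 1711, 1451 and 3801 and DESeq2 2157, 2679 and 4583.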
